A study of Homo sapiens with 9 samples.

Results

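The genes described here encode the protein core of the spliceosome, which removes introns from pre-mRNA, and the abundant heterogeneous nuclear ribonucleoproteins (hnRNPs) that coat the same transcripts. They were taken from the tables by symbol: 46 named genes out of 21619 in the tables, each present in every tumour. All 46 had counts above 0 in all 9 tumours and passed the filter on low counts. They were sorted by particle into 7 Sm proteins, 6 LSm proteins, 3 U1 proteins, 9 U2 proteins, the 2 subunits of U2AF, 6 proteins of the U4/U6 and U5 particles, the splicing factor RBM25 and 12 hnRNPs.

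The tumours were grown from MDA-MB-231, a human triple-negative breast cancer cell line, carrying EGFP fused to the ribosomal protein L10a. The cells were placed in the mammary fat pad of mice either with human bone marrow mesenchymal stem cells (MSC) in a 1:1 mixture or without them, and whole tumours were collected at 3 weeks. 5 tumours with MSC (numbered 1, 6, 7, 10 and 15) and 4 without (9, 11, 12 and 13) came from 9 different mice. Ribosomes were pulled down with anti-GFP beads and the attached polyadenylated RNA was sequenced (translating ribosome affinity purification, TRAP). Only the cancer cells were given the fusion protein, in both groups. No input RNA was analysed here, so a change in a value can be one in mRNA or in its attachment to ribosomes. In such bulk samples, fewer cells of a type and less RNA per cell cannot be told apart.

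The spliceosome is assembled on each intron from small nuclear ribonucleoproteins (snRNPs), each built on a small nuclear RNA. U1 pairs with the 5′ splice site, U2AF and U2 recognise the 3′ splice site and the branch point, and the U4/U6 and U5 particles then join and are rearranged into the catalytic form. Sm proteins form a ring around the U1, U2, U4 and U5 RNAs, while LSm proteins form a related ring on U6. The hnRNPs bind nascent transcripts and shape which exons are kept.

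The stretch of 250 bases before the start of the gene was read for 41 of the members from RefSeq (GRCh38.p14), while the counts were made on hg19. LSM6, SNRPD1, SF3B3, PRPF3 and HNRNPA1 had no entry. The windows of 4 genes are shown because the results below turn on them: the only gene that rose (SF3A2), the pair with the largest falls (RBM25 and LSM5), and U2AF1, which like LSM5 fell with no overlap between the groups. Each is printed 5′ to 3′ on the strand of its gene. Capitals mark matches, on either strand, to one of 4 searched motifs: CCAAT (the CCAAT box), CCGGAAG (an ETS-type site), GCATGCGC (an NRF1-type site) and CACGTG (the E-box).
SF3A2, chr19:2236574-2236823, plus strand: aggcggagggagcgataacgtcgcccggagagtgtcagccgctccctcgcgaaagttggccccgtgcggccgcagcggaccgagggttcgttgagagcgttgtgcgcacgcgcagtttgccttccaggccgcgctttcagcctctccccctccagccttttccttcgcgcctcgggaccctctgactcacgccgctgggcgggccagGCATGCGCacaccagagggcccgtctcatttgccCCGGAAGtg
RBM25, chr14:73058284-73058533, plus strand: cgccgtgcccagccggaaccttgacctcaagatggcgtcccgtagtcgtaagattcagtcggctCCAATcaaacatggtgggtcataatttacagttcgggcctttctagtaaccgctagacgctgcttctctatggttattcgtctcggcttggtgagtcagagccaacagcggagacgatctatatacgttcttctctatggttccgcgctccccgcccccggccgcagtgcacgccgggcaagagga
LSM5, chr7:32490381-32490630, minus strand: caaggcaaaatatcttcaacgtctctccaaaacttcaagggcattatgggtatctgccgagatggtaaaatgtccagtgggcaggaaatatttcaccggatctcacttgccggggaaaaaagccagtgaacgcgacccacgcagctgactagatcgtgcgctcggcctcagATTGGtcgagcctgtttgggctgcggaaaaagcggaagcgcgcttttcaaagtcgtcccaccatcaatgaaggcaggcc
U2AF1, chr21:43107571-43107820, minus strand: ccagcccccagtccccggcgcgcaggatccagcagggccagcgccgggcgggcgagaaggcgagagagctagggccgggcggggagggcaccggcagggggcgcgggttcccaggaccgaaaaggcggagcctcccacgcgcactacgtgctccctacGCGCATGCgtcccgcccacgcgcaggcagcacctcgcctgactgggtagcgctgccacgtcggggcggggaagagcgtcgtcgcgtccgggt
The SF3A2 window held CCGGAAG and GCATGCGC. The RBM25 and LSM5 windows held CCAAT, in LSM5 on the opposite strand as ATTGG. The U2AF1 window held GCGCATGC, the opposite strand of GCATGCGC. Over the 41 windows, CCGGAAG was found in 17 (41.5%), against 8.82% of 27305 promoters and 15.7% of the 9383 whose gene was tested. CCAAT stood in 16 (39.0%, against 33.0% of all promoters and 35.3% of those of tested genes). CACGTG stood in 4 (9.76%, against 6.49% and 8.87%) and GCATGCGC in 3 (7.32%, against 2.81% and 4.89%). The windows of SNRPE and SNRPG held 54 and 32 coding bases of their own gene in GENCODE, so they do not lie before every start of the gene. Without these 2, CCGGAAG stood in 15 of 39 windows (38.5%). A window could hold more than 1 motif. Of the 17 members with CCGGAAG, SF3A2 alone was past the threshold for expression described below, which 4.18% of all tested genes passed as higher and 3.60% as lower. A link between motif and change was not tested. These matches are a description of the letters in these windows. For 39 of the 41 windows, bases just after the window were found in a GENCODE transcript of the same gene. They could lie anywhere in the transcript, so the position of the start was not checked.

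Counts assigned to genes ranged from 24616792 to 65275226 per tumour. Levels are given as CPM, the count relative to the library total after TMM scaling, with mean ± SD, and changes as log2 of the level with MSC over that without, ± SE. A gene was called where the Benjamini-Hochberg adjusted p of edgeR's quasi-likelihood test over 13458 genes was under 0.05. The line's own markers differed widely in level: VIM was the highest, between 6742 and 12516 CPM, and EGFR the lowest, between 7.20 and 21.3 CPM. Tumour 15, grown with MSC, stood apart in markers of fibroblasts and MSC: its 10 markers summed to 118 CPM, against 18.7 to 34.0 in the other tumours with MSC and 13.04 to 22.8 in those without. 6 of these 10 markers, COL3A1, DCN, LUM, PDGFRA, THY1 and POSTN, were at 0 in at least 1 tumour. Summed markers of G2 and mitosis were lower with MSC, 1140 to 1355 CPM against 1425 to 1791, with 8 of 15 genes called lower and all 15 on the negative side. The smooth muscle and adipocyte markers summed to at most 3.91 CPM in any tumour. Endothelial markers, mainly PECAM1, summed to 4.91 to 7.26 CPM with MSC and 8.33 to 10.8 CPM without, with no overlap. PECAM1 alone stood at 3.77 to 6.04 CPM with MSC and 6.79 to 9.62 CPM without, and was called lower. The mean log2 CPM of the list, with 0.05 CPM added, was -1.30 ± 0.61 with MSC and -1.33 ± 0.38 without. CDH5, TEK and VWF were at 0 in at least 1 tumour. Leukocyte markers, mainly CD68, summed to 138 to 209 CPM with MSC and 94.3 to 138.0 CPM without, which overlapped, and CD68 was called higher. COL1A2 of the fibroblast list and CD44, EGFR and KRT8 of the line's own markers were called higher too. The part of these markers in the results was not tested.

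Most of the 46 genes lay on the lower side in tumours with MSC. Reads of the 46 genes made up 1.00% to 1.17% of gene counts in tumours with MSC and 1.17% to 1.42% in those without. 6 genes fell (13.04%): RBM25, LSM5, HNRNPU, U2AF1, LSM6 and HNRNPH1. 1 gene rose (2.17%): SF3A2. Over all tested genes, 3.60% fell and 4.18% rose. Among the 3668 tested genes with a mean of at least 50 CPM, a level that all the members but SF3A2 and PRPF3 reached, 7.58% fell and 6.49% rose. The median change of the members was -0.20, with 35 negative and 11 positive, against a median of 0.01 over all tested genes and -0.05 over those of at least 50 CPM. At an unadjusted p under 0.05, 20 members were lower and 1 was higher, against 11.8% and 12.8% of all tested genes. Of the 3668 genes of at least 50 CPM, 757 were lower and 555 higher at that p. All values with MSC lay below all those without in 3 members (LSM5, U2AF1 and HNRNPR) and above them in 1 (SF3A2). That is 6.52% and 2.17% of the members. Over all tested genes this held for 4.87% and 5.13%, and over those of at least 50 CPM for 8.12% and 6.03%. The plot of changes by particle shows the single red point of SF3A2 far from the rest.

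**Figure D1:**
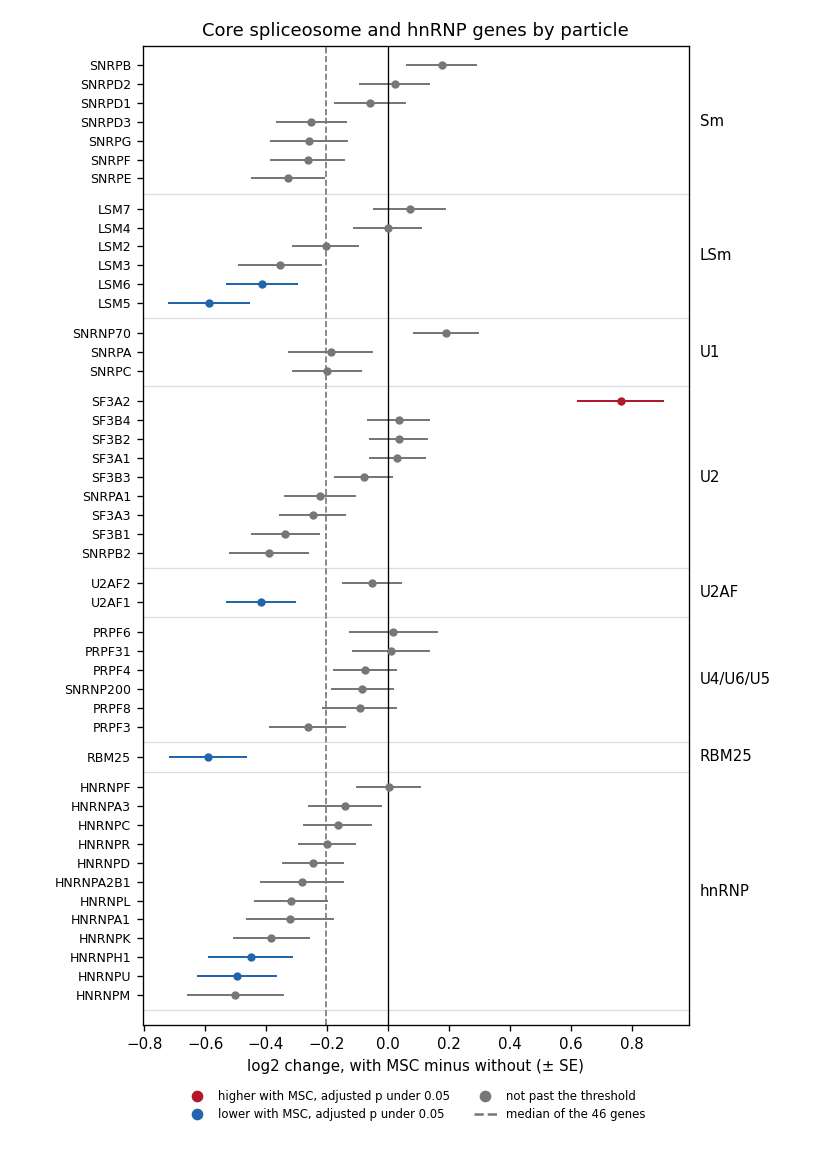
Log2 change of each of the 46 genes with MSC against without (points, ± SE from edgeR), grouped by particle. Blue marks the 6 genes past an adjusted p of 0.05 on the lower side and red the 1 on the higher side, grey the others. The dashed line is the median of the 46, -0.20.

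No Sm gene was called in either direction by edgeR, DESeq2 or limma-voom. With edgeR, 4.18% of all tested genes were called higher and 3.60% lower. The Sm proteins are the 7 shared subunits that close around the snRNAs. Their median change was -0.25, with 3 lower at an unadjusted p under 0.05, against 11.8% of all tested genes. SNRPE, one subunit of the ring, came nearest to the threshold. Its level was 312.3, 328.3, 333.5, 256.4 and 233.2 CPM in tumours 1, 6, 7, 10 and 15 with MSC and 398.6, 354.3, 402.2 and 314.7 CPM in tumours 9, 11, 12 and 13 without. Tumour 13 lay inside the range with MSC and the other 3 without MSC above it. The means were 293 ± 45.2 and 367 ± 41.3 CPM, a log2 change of -0.33 ± 0.12 (adjusted p = 0.0997). SNRPD3, which pairs with SNRPB in the ring, had 155 ± 21.3 CPM with and 184 ± 23.5 CPM without (-0.25 ± 0.12, adjusted p = 0.187). SNRPD2 had the largest p of the 7: its log2 change was 0.02 with a 95% interval from -0.22 to 0.27, and its sign turned under the correction for GC content. The remaining Sm genes had adjusted p-values from 0.194 to 0.802, SNRPB and SNRPD2 being the ones on the positive side.

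2 of the 6 LSm genes fell (33.3%, against 3.60% of all tested genes), LSM5 and LSM6. These proteins belong both to the ring on U6 and to a cytoplasmic ring that takes part in mRNA decapping. LSM5 stood at 206.0, 203.9, 207.9, 170.9 and 152.3 CPM in tumours 1, 6, 7, 10 and 15, and at 293.7, 254.9, 365.3 and 218.4 CPM in tumours 9, 11, 12 and 13. The groups did not overlap: the lowest tumour without MSC, 13, was just above the highest with. LSM5 fell by 33.5%, from 283 ± 62.9 to 188 ± 25.2 CPM (log2 change -0.59 ± 0.13, adjusted p = 0.0137). Its call was lost without tumour 9 (adjusted p = 0.0503) and without tumour 12 (0.0821). With tumours 12 and 15 both out its log2 change was -0.38.
LSM6 stood at 55.6, 53.2, 59.7, 53.3 and 47.4 CPM with MSC and at 80.6, 54.7, 78.6 and 73.1 CPM without, in the same order of tumours. Tumour 11 was the only one without MSC inside the range with MSC. LSM6 fell by 24.9%, from 71.7 ± 11.8 to 53.8 ± 4.43 CPM (-0.41 ± 0.12, adjusted p = 0.0371). This call was lost with limma-voom and when any of tumours 1, 6, 10, 15, 9 or 12 was left out. LSM3 had 221 ± 41.4 CPM with and 282 ± 48.4 CPM without (-0.35 ± 0.14, adjusted p = 0.114), LSM2 248.5 ± 29.9 and 286 ± 27.1 CPM (-0.20 ± 0.11, adjusted p = 0.263). LSM4 had the largest p, with a log2 change of 0.00 and an interval from -0.24 to 0.23. LSM7 lay at 0.07, on the negative side only under the GC correction. So within the ring the differences ran from -0.59 to 0.07. Whether the LSm genes differ from each other was not tested.

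None of the 3 U1 genes passed the threshold, which 4.18% of all tested genes passed as higher and 3.60% as lower. None had an unadjusted p under 0.05, and DESeq2 and limma-voom called none. SNRNP70, the U1-70K protein that binds the U1 RNA and contacts other splicing factors, lay on the higher side: 100.5, 118.8, 110.6, 104.5 and 109.3 CPM in tumours 1, 6, 7, 10 and 15 against 80.2, 113.4, 90.0 and 98.0 CPM in tumours 9, 11, 12 and 13. Its groups overlapped through tumour 11. The log2 change was 0.19 ± 0.11 (adjusted p = 0.289), and it was -0.02 under the correction for GC content. SNRPC, a zinc finger protein that steadies U1 at the 5′ splice site, had 359 ± 47.6 CPM with and 412 ± 36.9 CPM without (-0.20 ± 0.11, adjusted p = 0.293). SNRPA, which binds a stem-loop of U1 RNA, had 93.1 ± 13.5 and 106 ± 25.6 CPM (-0.19 ± 0.14, adjusted p = 0.431, interval -0.48 to 0.10).

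Among the 9 U2 genes, SF3A2 rose (11.1%, against 4.18% of all tested genes) and none fell (against 3.60%). SF3A2 is a subunit of SF3a, which with SF3b forms the part of U2 that clamps the branch point. It stood at 37.9, 33.6, 38.3, 40.3 and 33.5 CPM in tumours 1, 6, 7, 10 and 15 and at 20.7, 21.2, 15.9 and 28.6 CPM in tumours 9, 11, 12 and 13. Every tumour with MSC was above every tumour without. SF3A2 rose by 69.8%, from 21.6 ± 5.24 to 36.7 ± 3.04 CPM (log2 change 0.76 ± 0.14, adjusted p = 0.0049). It passed the threshold in all 20 alternative analyses, with a log2 change from 0.52 under the GC correction to 0.93 without tumour 13. They include an adjusted p under 0.10 on the same fit, where no called gene could lose its call. SF3A2 was also among the lowest of the members in CPM. It shares 398 exon bases with PLEKHJ1 on the opposite strand in the GENCODE annotation, and the library kit does not mark strand, so reads in the shared stretch cannot be told apart. PLEKHJ1 itself was at 70.7 ± 11.1 CPM with and 64.7 ± 6.83 CPM without (0.13 ± 0.12, adjusted p = 0.540). The same limit holds for other members that share opposite-strand exon bases with a counted gene. These are LSM3 (318 bases with XPC), PRPF31 (266 with TFPT) and SF3A1 (218 with CCDC157). PRPF4 (208 with CDC26), HNRNPA2B1 (140 with CBX3) and SNRPF (113 with CCDC38) are the others.
The 2 other subunits of SF3a did not pass the test. SF3A3 had 106 ± 10.3 CPM with and 125 ± 16.6 CPM without (-0.25 ± 0.11, adjusted p = 0.169). SF3A1, which had the largest p of the uncalled U2 genes, had 85.8 ± 3.93 and 84.0 ± 1.51 CPM, a log2 change of 0.03 with an interval from -0.16 to 0.22. That interval does not reach the change of SF3A2, though the difference between these genes was not tested. Here the highest and lowest of all 9 tumours were 92.3 and 82.1 CPM.
SNRPB2, which binds the U2 RNA, was nearest to the threshold among the rest: 127.7, 139.9, 148.1, 103.4 and 90.8 CPM against 152.6, 175.9, 173.4 and 138.0 CPM. Tumour 13 was again the one without MSC that fell inside the range with MSC. The log2 change was -0.39 ± 0.13 (adjusted p = 0.0684), and it was called lower by DESeq2. SF3B1, the largest SF3b subunit and the one most often mutated in cancers, had 72.8, 91.9, 94.0, 78.9 and 98.1 CPM against 102.0, 113.4, 127.7 and 97.4 CPM. Only tumours 15 and 13 crossed, by less than 1 CPM. Its log2 change was -0.34 ± 0.11 (adjusted p = 0.0685), and it was called lower by DESeq2. The median over the 9 U2 genes was -0.08. SNRPA1, the partner of SNRPB2 on the U2 RNA, had a log2 change of -0.22 ± 0.12 (adjusted p = 0.246). SF3B2, SF3B3 and SF3B4 had log2 changes from -0.08 to 0.03, and SF3B2 and SF3B4, like SF3A1, turned negative under the GC correction.

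U2AF1 fell and its partner U2AF2 did not pass the test. U2AF1 is the small subunit that reads the AG at the 3′ splice site, and U2AF2 the large one that reads the pyrimidine tract before it. U2AF1 stood at 170.0, 177.6, 175.6, 133.7 and 140.1 CPM in tumours 1, 6, 7, 10 and 15 and at 209.8, 213.5, 246.5 and 181.3 CPM in tumours 9, 11, 12 and 13. No value with MSC reached the lowest without, again that of tumour 13. U2AF1 fell by 25.1%, from 213 ± 26.7 to 159 ± 20.8 CPM (log2 change -0.42 ± 0.12, adjusted p = 0.0338). The call was lost with limma-voom and when any of tumours 1, 10, 15, 9, 11 or 12 was left out. The related gene U2AF1L4 reached at most 13.8 CPM. U2AF2 had 180.1, 173.5, 187.0, 166.8 and 188.4 CPM with MSC and 162.2, 198.6, 194.3 and 188.7 CPM without. These ranges overlapped almost fully (-0.05 ± 0.10, interval -0.26 to 0.15, adjusted p = 0.781). The difference between the subunits was not tested.

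In the U4/U6 and U5 particles, edgeR, DESeq2 and limma-voom each called none of the 6 genes. With edgeR, 4.18% of all tested genes were called higher and 3.60% lower. Of the 6, 1 was lower at an unadjusted p under 0.05, against 11.8% of all tested genes. That gene was PRPF3, which holds U4 and U6 together: 33.6, 39.5, 42.2, 33.1 and 30.3 CPM with MSC against 39.8, 46.5, 49.5 and 36.0 CPM without (-0.26 ± 0.13, adjusted p = 0.202). Its groups overlapped through tumours 9 and 13. SNRNP200, the U5 helicase that unwinds U4 from U6, had 82.2 ± 8.28 CPM with and 87.2 ± 7.58 CPM without (-0.08 ± 0.10, adjusted p = 0.664). PRPF31, a U4/U6 protein mutated in inherited retinal degeneration, had 99.5 ± 12.1 and 98.8 ± 21.0 CPM, a log2 change of 0.01 with an interval from -0.26 to 0.28. PRPF4, PRPF6 and PRPF8 had changes between -0.09 and 0.02. PRPF31 and PRPF6 turned negative under the GC correction.

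RBM25, an RNA-binding protein that acts with U1 in the choice of 5′ splice sites, fell. It stood at 56.4, 59.7, 54.7, 49.6 and 64.9 CPM in tumours 1, 6, 7, 10 and 15 and at 84.0, 87.0, 109.2 and 63.6 CPM in tumours 9, 11, 12 and 13. 3 of the 4 tumours without MSC were above all with MSC, and tumour 13 lay just under tumour 15. RBM25 fell by 33.6%, from 86.0 ± 18.7 to 57.1 ± 5.73 CPM (log2 change -0.59 ± 0.13, adjusted p = 0.0111). It passed the threshold in 19 of 20 alternative analyses, among them the looser threshold on the same fit. The exception left out tumour 12, the highest (-0.46, adjusted p = 0.0579).

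**Figure D2:**
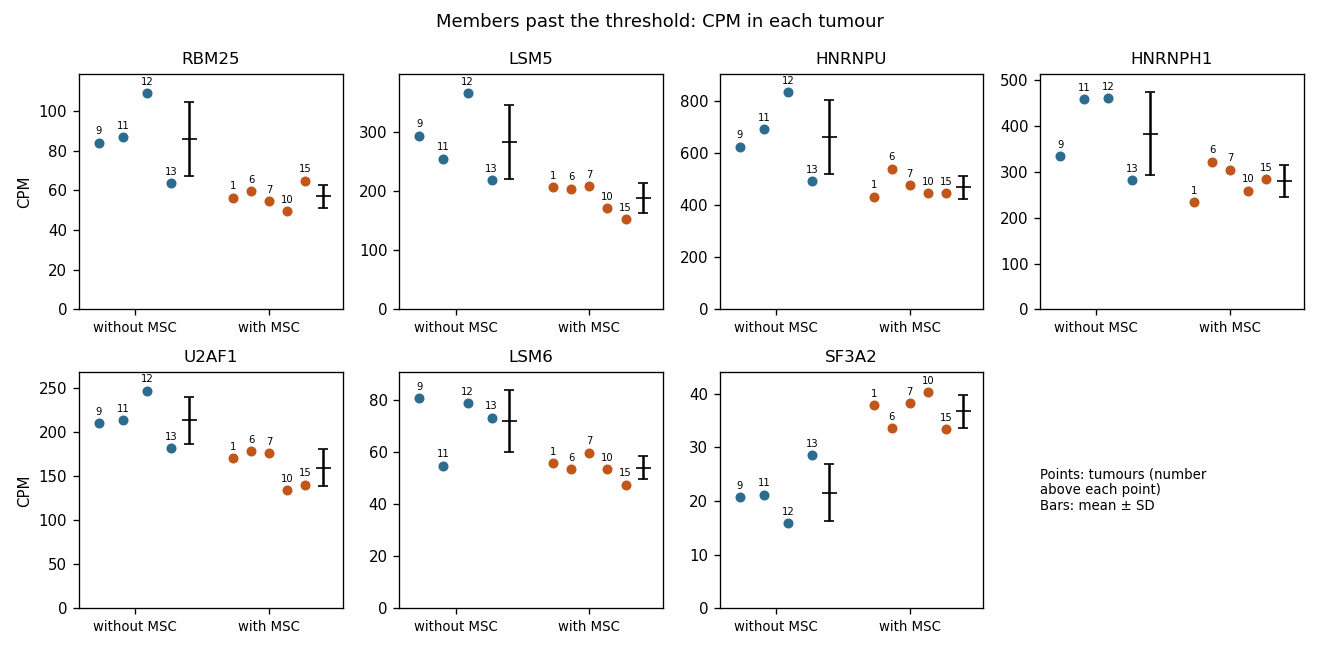
CPM (TMM-scaled) of the 7 genes past the threshold in each tumour, with tumour numbers, without MSC in blue and with MSC in orange. Bars are mean ± SD of 4 and 5 tumours. SF3A2, LSM5 and U2AF1 show no overlap between the groups, and in RBM25, HNRNPU and HNRNPH1 tumour 13 sits at the level of the tumours with MSC.

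Of the 12 hnRNP genes, 2 fell (16.7%, against 3.60% of all tested genes), HNRNPU and HNRNPH1, and none rose. 11 of the 12 changes were negative and the median was -0.30. An unadjusted p under 0.05 was met by 8 on the lower side, against 11.8% of all tested genes. It was met by 757 of the 3668 genes of at least 50 CPM. The one positive change, HNRNPF at 0.00, took a negative sign with DESeq2's size factors. DESeq2 called 4 lower, against 5.87% of all tested genes, and limma-voom 0, against 2.15%. HNRNPU, a large nuclear matrix protein that binds RNA and chromatin, stood at 432.6, 540.7, 477.5, 447.6 and 446.4 CPM with MSC and at 625.6, 693.2, 834.3 and 493.6 CPM without. 3 of the tumours without MSC were above all with, and tumour 13 was among the values with MSC. HNRNPU fell by 29.1%, from 662 ± 142 to 469 ± 43.3 CPM (-0.50 ± 0.13, adjusted p = 0.0271). The call was lost with limma-voom and when any of tumours 1, 7, 10, 9, 11 or 12 was left out. Its antisense gene HNRNPU-AS1 reached at most 18.2 CPM.
HNRNPH1, which binds runs of G and regulates exon choice, stood at 233.6, 321.9, 304.6, 258.9 and 283.5 CPM with MSC and at 333.7, 458.0, 460.2 and 282.1 CPM without. Again only tumour 13 lay inside the range with MSC. HNRNPH1 fell by 26.8%, from 383 ± 89.8 to 281 ± 35.3 CPM (-0.45 ± 0.14, adjusted p = 0.0498). This was the weakest of the calls: it was lost in 13 of 20 alternatives, among them DESeq2's size factors, upper-quartile scaling, limma-voom, the GC correction and the removal of any of tumours 1, 7, 10, 15, 9, 11 or 12.
HNRNPM, which binds GU-rich sequences and is known for its role in splicing switches of breast cancer cells, had a change as large without passing. Its values were 189.3, 255.8, 234.6, 187.7 and 211.6 CPM with MSC and 228.1, 365.3, 402.6 and 226.2 CPM without. Tumours 9 and 13 lay among those with MSC while 11 and 12 stood far above. The log2 change was -0.50 ± 0.16 (adjusted p = 0.0580). HNRNPK, which binds C-rich sequences, had 662 ± 63.4 CPM with and 863 ± 151 CPM without (-0.38 ± 0.13, adjusted p = 0.0652). DESeq2 called both lower. HNRNPF, a close relative of HNRNPH1, had the largest p: 264 ± 26.2 and 264 ± 26.3 CPM, with an interval from -0.22 to 0.23.
HNRNPR was chosen for mention after its values were seen. It stood at 127.4, 140.6, 140.6, 123.7 and 135.7 CPM with MSC and at 162.3, 149.2, 156.0 and 146.3 CPM without. The groups did not overlap, but the change was small (-0.20 ± 0.09) and missed the threshold (adjusted p = 0.194). The remaining hnRNP genes had changes from -0.32 (HNRNPA1) to -0.14 (HNRNPA3). HNRNPA1 shares near-identical sequence with HNRNPA1L2, which was listed at 130.1 to 239.8 CPM, so the split of reads between the 2 is uncertain (HNRNPA1L2: -0.24 ± 0.12, adjusted p = 0.225).

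The 4 tumours without MSC differed among themselves in much the same way across many of the genes. Tumour 13 was the lowest of the 4 without MSC in 30 of 46 genes and in all 12 hnRNP genes. Tumour 12 was the highest in 23 genes, 8 of them hnRNP genes. For 35 of the 46 genes the value of tumour 13 lay inside the range with MSC, against 18 for tumour 9, 16 for tumour 11 and 13 for tumour 12. Among tumours with MSC, tumour 15 was the lowest in 21 genes and tumour 10 in 13, while tumour 6 was the highest in 20. These CPM rest on TMM scaling, whose factor was 1.14 for tumour 15 and 0.94 to 1.04 for the other tumours. As an unscaled share of gene counts, the 46 genes made up 1.15% in tumour 15, against 1.00% to 1.17% in the other tumours with MSC. Its hnRNP share was the highest of these, 0.528% against 0.436% to 0.526%, and its Sm share was 0.222% against 0.202% to 0.259%. By particle, the low scaled level of tumour 15 was greatest in the rings. Its median centred log2 CPM was -0.36 for Sm and -0.39 for LSm genes, against -0.05 for U2 genes and -0.20 for hnRNP genes. Tumour 10 had -0.27, -0.24, -0.11 and -0.23 for the same groups. Tumour 12 had 0.30, 0.31, 0.09 and 0.36.

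**Figure D3:**
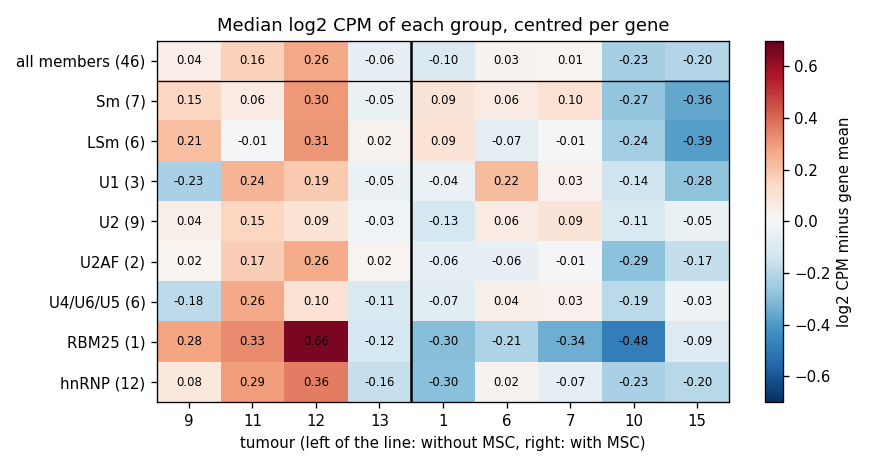
Median over the genes of each group (rows, number of genes in brackets) of centred log2 CPM, for each tumour (columns). Each gene was centred by subtracting the midpoint between its means with and without MSC. Tumour 12 is above 0 in every row, tumour 10 is below 0 in every row, and tumour 13 is near 0 in all rows, from -0.16 for hnRNP genes to 0.02.

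The number of genes called lower changed with the tumours included. It was 6 with all tumours, 0 without tumour 12 (11 had an unadjusted p under 0.05) and 14 without tumour 13. It was 2 without tumour 1, 9 or 10, 3 without tumour 11 or 15, 4 without tumour 7 and 5 without tumour 6. With tumours 12 and 15 both out, RBM25 was the 1 gene called lower, and 9 had an unadjusted p under 0.05. The median of the members was -0.17 without tumour 12, -0.26 without tumour 13 and -0.12 with 12 and 15 out, against medians over all tested genes of 0.00, 0.01 and -0.01. Over all genes the number of calls moved as well: 94 lower without tumour 12 and 863 lower without tumour 13, against 484. It was 191 without tumour 1, 138 without tumour 9, 191 without tumour 10, 299 without tumour 11 and 301 without tumour 15. Without tumour 7 it was 329, without tumour 6 it was 332, and with tumours 12 and 15 both out 101. Shares of all genes at an unadjusted p under 0.05 were not taken for these fits, so the 11 and 9 members have no background. SF3A2 was the 1 member called higher in each of these analyses.

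**Figure D4:**
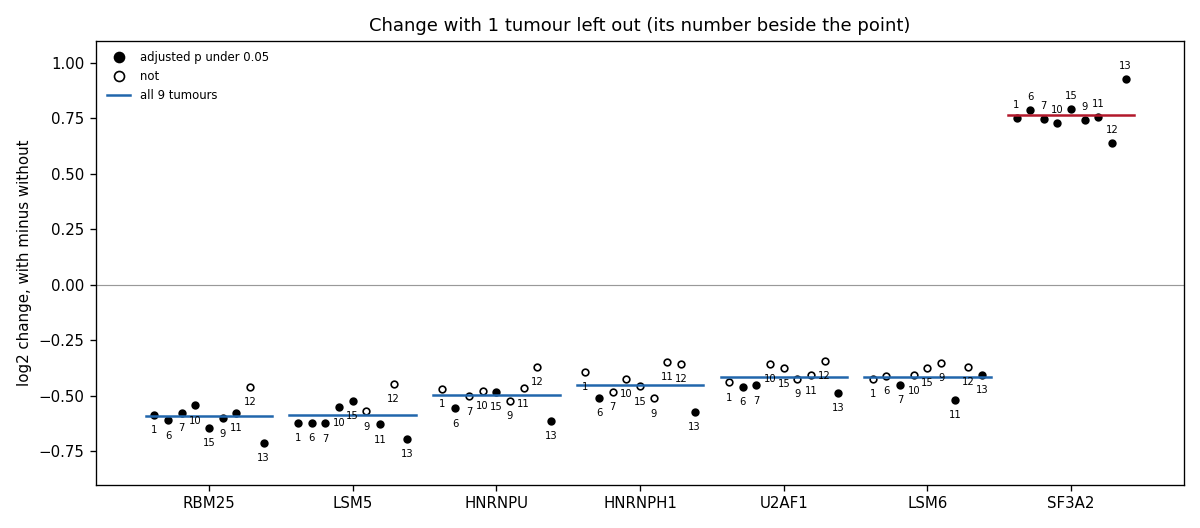
Log2 change of the 7 called genes when each tumour is left out in turn (its number beside each point); filled points keep an adjusted p under 0.05 and the lines are the values from all 9 tumours. All points keep their side of 0, and the points without tumour 12 are the smallest for RBM25, LSM5, HNRNPU, U2AF1 and SF3A2.

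The change of a member went along with the GC content of its transcript, taken from GENCODE 29. Over the 46 members Spearman's rho between log2 change and GC content was 0.64, and over 12870 tested genes with an annotated transcript it was 0.30. These are correlations across genes of the same libraries, given as a description. All 17 members under 45% GC had negative changes, with a median of -0.32 (-0.09 over all genes in that band). Of the 16 from 45% to 55%, 14 were negative with a median of -0.21 (-0.01 over all genes). Of the 13 members from 55% upward, 4 were negative and the median was 0.02 (0.15 over all genes). SF3A2 had the highest GC content of the members, 66.6%, and LSM5 one of the lowest, 36.0%. With the libraries corrected for GC content and length, SF3A2 still rose and 7 members were lower: RBM25, LSM5, LSM6, U2AF1, HNRNPU, HNRNPL and HNRNPM. The median of the members was then -0.21 against -0.05 over all genes, with 43 of 46 negative. Over all genes the correction moved the calls from 563 higher and 484 lower to 339 higher and 485 lower. Spearman's rho with transcript length was -0.09 for the members. The part of GC content in the changes was not tested beyond this correction.

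**Figure D5:**
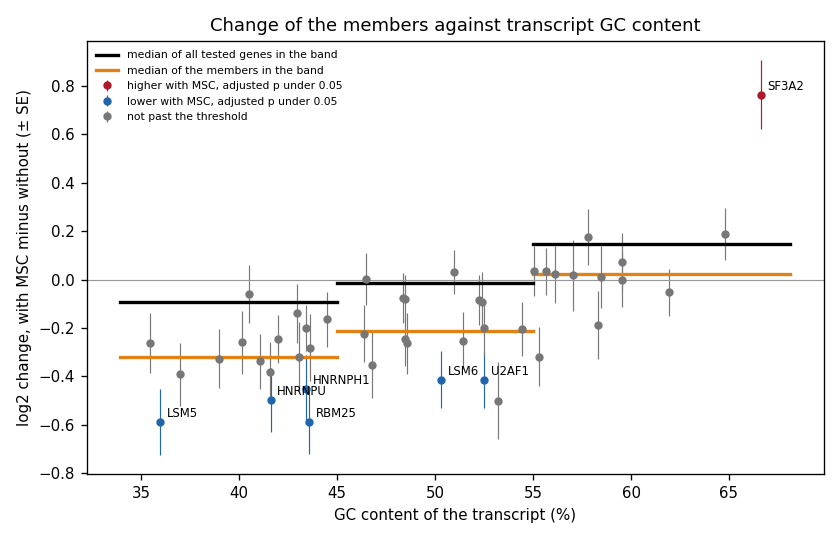
Log2 change (± SE) of each of the 46 genes against the GC content of its GENCODE transcript in percent. Horizontal lines are medians in 3 GC bands, orange for the members (-0.32, -0.21 and 0.02) and black for all tested genes (-0.09, -0.01 and 0.15); the orange line is below the black one in each band.

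Levels can be compared between genes only per length. In CPM per kilobase of transcript in tumours without MSC, SNRPD2 was the highest Sm gene at 796 and SNRPD1 the lowest at 47.0. LSM4 was the highest LSm gene at 337 and LSM6 the lowest at 53.1. These levels rest on the annotated isoform: the SNRPD1 transcript used is 4909 bases long and that of SNRPD2 702 bases. With MSC the levels were 808 for SNRPD2, 45.1 for SNRPD1, 337 for LSM4 and 39.8 for LSM6, and these 4 kept their order.

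The other genes of the machinery were taken from 6 lists of spliceosome and RNA-binding proteins. Of 105 genes listed, 104 were in the tables and 102 were tested: 0 rose and 12 fell (11.8%, against 3.60% of all tested genes). Among tested genes of at least 50 CPM, a level that not all listed genes reached, 7.58% fell. By unadjusted p under 0.05, 32 were lower and 3 higher, against 11.8% and 12.8% of all tested genes. Of the 3668 genes of at least 50 CPM, 757 were lower and 555 higher by it. The median was -0.16, and 74 were negative (72.5%, against 48.9% of all tested genes and 57.9% of those of at least 50 CPM). In the Prp19 complex and its relatives, which help activate the spliceosome, 2 of 16 fell. PLRG1, a core subunit, stood at 70.1, 74.7, 77.5, 67.5 and 67.7 CPM with MSC and 100.1, 90.7, 117.3 and 92.8 CPM without. All tumours without MSC were above all with it (-0.49 ± 0.10, adjusted p = 0.00916). BCAS2, a second subunit of that complex, had 80.5 ± 9.98 CPM with and 111 ± 16.6 CPM without (-0.46 ± 0.12, adjusted p = 0.0214).
Among the other snRNP proteins, 3 of 20 fell: SNRNP40 of U5 (-0.44 ± 0.12, adjusted p = 0.0272), the helicase DDX46 that acts with U2 (-0.44 ± 0.13, adjusted p = 0.0389) and PPIH of U4/U6 (-0.37 ± 0.11, adjusted p = 0.0473). Among helicases and step factors 1 of 15 fell, PRPF38A (-0.38 ± 0.11, adjusted p = 0.0390). DDX39B of this list had at most 26 counts in a tumour and was not tested. Of the other hnRNP and related genes 3 of 28 fell: SFPQ, a paraspeckle protein (-0.44 ± 0.13, adjusted p = 0.0433), HNRNPUL2, a relative of HNRNPU (-0.38 ± 0.11, adjusted p = 0.0448), and HNRNPH3, a relative of HNRNPH1 (-0.33 ± 0.10, adjusted p = 0.0462).
In snRNP assembly, the SMN complex and the PRMT5 methylosome load Sm rings onto snRNAs. SMN1 had 0 counts in every tumour and was not tested. Of the 15 tested genes of this list, 14 were negative (93.3%, against 48.9% of all tested genes) and 2 fell (13.3%, against 3.60%). They were GEMIN2, from 24.3 ± 2.59 to 18.1 ± 1.77 CPM (-0.43 ± 0.13, adjusted p = 0.0429), and WDR77, the partner of PRMT5, from 74.7 ± 6.12 to 58.8 ± 2.62 CPM (-0.35 ± 0.10, adjusted p = 0.0371). In both genes the groups did not overlap. Such a gap on the lower side was found in 3 of the 15 genes (20%), against 4.87% of all tested genes. Of 8 genes of the minor spliceosome, which removes a rare class of introns, 1 fell, SNRNP35 (-0.49 ± 0.14, adjusted p = 0.0324).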

How the data were processed

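Ribosome-bound RNA of 9 xenograft tumours was sequenced, 5 with and 4 without MSC, 1 tumour per mouse. The authors deposited raw counts per gene symbol for each tumour; HTSeq, TopHat 1.4.0 and CASAVA 1.8.1 with build hg19 are listed, per the submitters' processing notes. Strand setting and gene annotation were not stated in what was used here. Lines that name no gene were left out of library sizes. Together they held 10.2% to 12.1% of counts in each tumour. Replicates within a group differed beyond sampling noise (smallest chi-square per degree of freedom 23.2).

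The 46 genes, the 6 lists, the markers and the settings were chosen with earlier results of these data known. Counts were filtered with filterByExpr, scaled by TMM and tested with edgeR 4.0.16 (quasi-likelihood, robust; R 4.3.3) over 13458 genes, 5 against 4 tumours without covariates, tested on simulated data. The 95% intervals are from the same fit. CPM are computed from the deposited counts. Named were all called members, in each particle the 2 uncalled genes of smallest and the 1 of largest p, and up to 4 called genes per list; exceptions are stated. The alternatives, 20 in all, covered scaling, filters, DESeq2 1.42.0, limma-voom (3.58.1), an adjusted p under 0.10, tumours left out, and a spline correction for GC content and length. Transcript lengths and GC content came from GENCODE 29, promoters from RefSeq. A motif match was exact, on either strand.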

Additional observations from a re-analysis of the deposited data

Results flagged for a closer look

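Each gene was examined in both groups, 92 groups of 4 or 5 tumours, for a value far from its neighbours by Dixon's criterion, which chance meets in about 1 in 20 groups. 3 values met it. LSM7 in tumour 9, without MSC, was low at 119.7 CPM, with the nearest tumour at 146.8 CPM. HNRNPC in tumour 13, also without MSC, was low at 577.1 CPM, with the nearest at 665.2 CPM. PRPF8 in tumour 15, with MSC, was high at 145.8 CPM, with the nearest at 118.5 CPM. None of these 3 genes was called in any of the 20 alternatives.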

How the results depend on the processing

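SF3A2 was the 1 gene called higher in all 20 alternatives, among them the looser threshold on the same fit, where it could not lose its call. The number called lower, 6, was 10 with DESeq2 (5.87% of all tested genes were lower), 2 with limma-voom (2.15%), 11 at an adjusted p under 0.10 (6.60%), 1 with tumours 12 and 15 both out (0.747%), and 0 to 14 when 1 tumour was left out (0.690% to 6.40%). It was 5 to 8 under the other scalings, filters and corrections. The 7 called genes kept their direction throughout. Signs turned only in uncalled genes. HNRNPF was -0.0013 with DESeq2's size factors, -0.00068 without a filter and -0.0012 with DESeq2. LSM4 was 0.0056 with upper-quartile factors, 0.0043 with the filter of 5 CPM in 4 tumours and 0.083 with tumours 12 and 15 out, where SNRPD1 was 0.021. With limma-voom SNRPD2 was -0.0036 and PRPF31 -0.033. Under the GC and length correction SNRPD2 was -0.084, LSM7 -0.12, SNRNP70 -0.023, SF3A1 -0.075, SF3B2 -0.11, SF3B4 -0.058, PRPF31 -0.13 and PRPF6 -0.14. With 1 tumour left out, HNRNPF ran from -0.061 to 0.051, LSM4 from -0.066 to 0.045, SNRPD1 from -0.12 to 0.0048, SNRPD2 from -0.023 to 0.091, SF3B2 from -0.0063 to 0.076, SF3B4 from -0.022 to 0.077, PRPF31 from -0.082 to 0.17 and PRPF6 from -0.095 to 0.22. The causes were not tested. No paired analysis was possible because the groups share no replicate number. Depth did not limit these genes, whose spread between tumours (median biological coefficient of variation 12.9%) exceeded counting error.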
